A study of Mus musculus with 9 samples.

Results

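The comparison described here sets quadriceps muscle of MCK-MRcko/mdx mice, in which the mineralocorticoid receptor (MR) gene was deleted in myofibers, against quadriceps of Cre-/mdx control mice. It comprised 6 of the 9 arrays of the series, 3 per group, and all 65672 transcript clusters of the array, which gave 30707 genes when each symbol was represented by its cluster with the highest mean over the 9 arrays. The MCK-MRcko/mdx mice carried MCK-Cre, MR flox/flox and mdx, and the Cre-/mdx mice carried MR flox/flox and mdx without Cre. All animals therefore lacked dystrophin and had floxed MR alleles on a mixed C57BL6/C57BL10 background, were aged 8 weeks, and contributed 1 Clariom D array each. Single animals are called knockout mouse 1 to 3 and control mouse 1 to 3. The MCK-MRcko/mdx group held 2 females (replicates 1 and 3) and 1 male (replicate 2), and the Cre-/mdx group held 1 female (replicate 2) and 2 males (replicates 1 and 3), so sex was not balanced between them. Differences given within females therefore rest on 1 control mouse, and those within males on 1 knockout mouse. They cannot show an effect of sex. The remaining 3 arrays, LysM-MRcko/mdx with MR deleted in myeloid cells, entered the fit and were used to test whether a difference was particular to the myofiber knockout.

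MR is a nuclear receptor for aldosterone and glucocorticoids that acts as a ligand-dependent transcription factor. The mdx mouse is a model of Duchenne muscular dystrophy in which fragile myofibers degenerate and regenerate in cycles, and the muscle is infiltrated by macrophages that clear debris and direct repair. The muscle creatine kinase (MCK) promoter drives Cre in differentiated skeletal and cardiac muscle, whereas whole quadriceps also contains macrophages, endothelial cells, fibroblasts and satellite cells. A lower signal in such bulk tissue may reflect fewer cells of a type or less RNA per cell, and these cannot be told apart.

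Values are log2 signals, and every difference is MCK-MRcko/mdx minus Cre-/mdx on that scale with its standard error (SE) from limma. A gene or cluster counted as changed if it differed by at least 1, which is 2-fold, and an unadjusted p under 0.05. By this rule 137 genes changed, 105 higher (0.342% of all genes) and 32 lower (0.104%), as did 211 of all clusters (0.321%), 149 higher (0.227%) and 62 lower (0.0944%). After quantile normalization the split of the clusters was 115 higher and 99 lower. No cluster had an adjusted p under 0.05 in limma (0 of 65672), while 3640 (5.54%) and 6.48% of genes had an unadjusted p under 0.05, and the changed genes had adjusted p between 0.52 and 0.84 in limma. For 3 against 3 arrays the smallest two-sided p of an exact permutation test is 0.1. The groups had no overlapping arrays in 6.94% of genes, 1334 higher (4.34%) and 797 lower (2.6%), and in 6.2% of clusters, 3.39% higher and 2.81% lower. The calls moved with single arrays, and 30 of the 137 genes kept their call with any 1 of the 6 arrays left out.

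Array medians lay between 4.70 and 4.78 over the 9 arrays, and Xist signal matched the labelled sex in 9 of 9. All 24 myofiber markers had a cluster on the array. Their signal was high, with list means of 16.7 to 16.92 in MCK-MRcko/mdx and 16.8 to 16.92 in Cre-/mdx. Acta1 and Myh4 were at the top of the scale, 19.93, on all 6 arrays. Altogether 156 clusters sat at that value on all 6 arrays and could not show a change. Nr3c2, which encodes MR, had log2 signals of 6.74, 6.81 and 6.87 in MCK-MRcko/mdx and 6.89, 7.12 and 7.06 in Cre-/mdx, a difference of -0.22 (SE 0.07). The knockout arrays did not overlap the controls, but the signal comes from all cell types of the muscle, and which exons the cluster reads relative to the floxed part is not given in the sources used here, so it does not check the deletion.

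Of the chosen lists, that of macrophage markers held the most higher genes. Of 24 macrophage markers, 7 rose, 0 fell and all 24 had a positive difference, with a median of 0.65 against 0.00 over all genes. The list median on single arrays, relative to the control mean of each gene, was 0.62, 0.85 and 0.70 in MCK-MRcko/mdx and -0.26, 0.07 and 0.22 in Cre-/mdx, so the groups did not overlap. Leaving out 1 array gave medians of 0.55 to 0.78 and 4 to 8 changed markers, with 4 without control mouse 1, the array with the lowest macrophage signal. The markers of other leukocytes had medians of 0.00 for 14 neutrophil, 0.01 for 14 T and NK cell and 0.00 for 9 B cell markers, with 0 changed in limma. Of 12 dendritic cell markers, 1 changed, and that gene, Bst2, was lower.

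Mrc1, the mannose receptor CD206 of tissue-resident and reparative macrophages, had log2 signals of 15.82, 15.15 and 14.99 in MCK-MRcko/mdx and 14.04, 13.91 and 13.71 in Cre-/mdx. All knockout arrays were higher by more than the spread of either group, and the difference was 1.43 (2.7-fold, SE 0.21). Itgam, the integrin chain CD11b of myeloid cells, was 11.51, 11.23 and 11.35 in MCK-MRcko/mdx and 10.19, 10.28 and 10.23 in Cre-/mdx. The groups stood clearly apart, with a difference of 1.13 (SE 0.18). Ccr2, the chemokine receptor that brings monocytes from blood into injured muscle, had signals of 9.49, 9.85 and 10.41 in MCK-MRcko/mdx and 8.72, 8.50 and 8.50 in Cre-/mdx. It rose by 1.34 (SE 0.29) without overlap, and like Mrc1 and Itgam it kept its call without any single array. Ctss, described with the lysosomal enzymes, was another such marker, and the other 3 changed markers were less stable. Cd68, a lysosomal glycoprotein of macrophages, rose by 1.08 and lost its call at 0.71 to 1.18 without control mouse 1 or 2 or knockout mouse 1 or 2. Adgre1, the F4/80 antigen, rose by 1.03 and fell under the limit without control mouse 1 (0.93), control mouse 2 (0.96) or knockout mouse 3 (0.89). Tyrobp, the adaptor DAP12 of activating receptors, rose by 1.27 and lost its call without control mouse 1 (0.73), knockout mouse 1 (1.29) or knockout mouse 3 (1.05).

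Scavenger receptors, which bind modified lipoproteins, dead cells and microbes, included the gene with the highest rise. Msr1, the class A scavenger receptor, had log2 signals of 11.60, 10.23 and 10.64 in MCK-MRcko/mdx and 8.58, 9.12 and 8.19 in Cre-/mdx. The lowest knockout array was above the highest control array, and the difference was 2.19 (4.57-fold, SE 0.39), with 2.00 within females and 1.85 within males. Folr2, a folate receptor of resident macrophages, was 12.39, 12.18 and 12.94 in MCK-MRcko/mdx and 9.88, 11.73 and 11.16 in Cre-/mdx, with the lowest value in control mouse 1. It rose by 1.58 (SE 0.48), and both genes kept their calls without any single array. Of 21 measured scavenger receptor genes 4 rose and 0 fell, with a median of 0.40. Msr1 was also higher in MCK-MRcko/mdx than in LysM-MRcko/mdx, by 1.31 (SE 0.39). Besides it, Rgs18, a regulator of G protein signaling in blood cells, was the only 1 of the 105 higher genes that also passed this test (1.01, SE 0.29), so the myeloid rise as a whole was not shown to be particular to the myofiber knockout. The macrophage list had a median of -0.24 in MCK-MRcko/mdx minus LysM-MRcko/mdx.

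Some genes of the inhibitory leukocyte receptor list rose, a list that also holds Il1rn, which is not a receptor. Lilrb4a, an inhibitory receptor of myeloid cells, had log2 signals of 16.09, 15.07 and 15.31 in MCK-MRcko/mdx and 12.99, 14.52 and 13.26 in Cre-/mdx. The groups did not overlap, with control mouse 2 nearest to the knockouts, and the difference was 1.90 (3.73-fold, SE 0.48). Cd84, a homophilic receptor of the SLAM family, was 11.96, 11.92 and 11.92 in MCK-MRcko/mdx and 9.72, 10.91 and 10.06 in Cre-/mdx. It rose by 1.70 (SE 0.35), with nearly identical values in the knockout mice. Neither call depended on a single array. Of the 19 genes of this list, 5 rose, 0 fell and 18 were positive, with a median of 0.54. Among them Havcr2, the receptor TIM-3, rose by 1.02 and fell below the limit without control mouse 3 (0.82), knockout mouse 1 (0.88) or knockout mouse 2 (0.83). Il1rn, the secreted antagonist of the interleukin-1 receptor, rose by 1.02 with overlapping arrays and lost its call without control mouse 1 (0.69), control mouse 3 (0.92), knockout mouse 1 (0.95) or knockout mouse 2 (1.03).

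**Figure D1:**
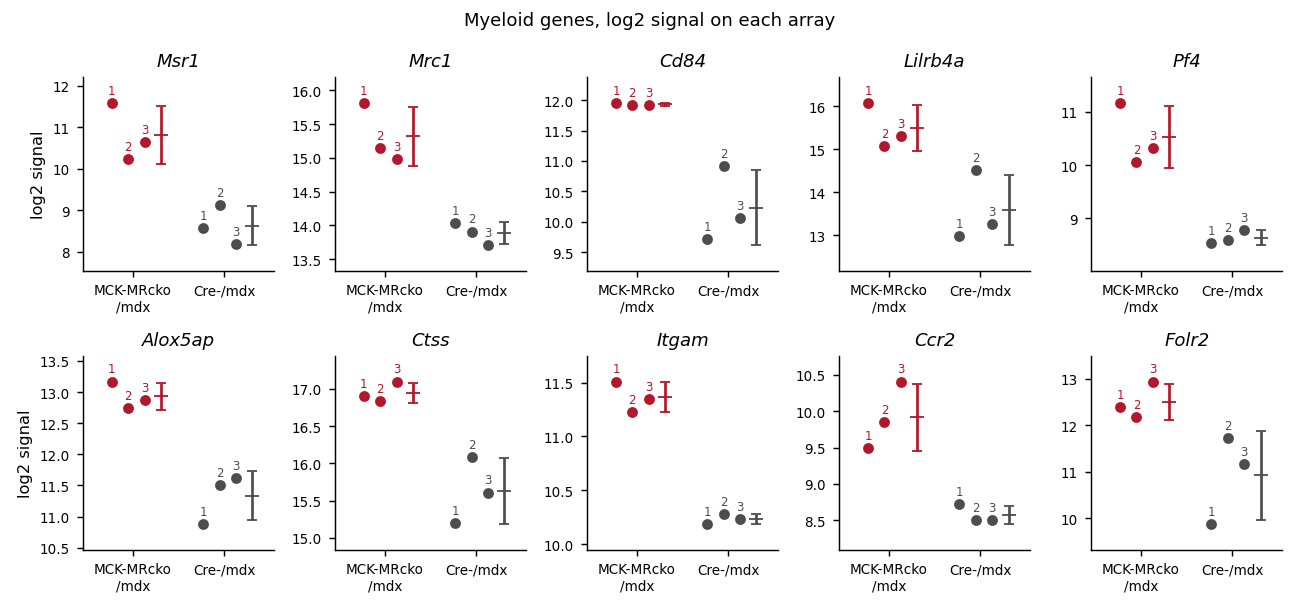
Log2 signal (y axis, own range per panel) of 10 myeloid genes on each array, with MCK-MRcko/mdx left and Cre-/mdx right; points are arrays numbered by replicate, and bars show mean and SD (n = 3 each). The 10 genes were picked from changed genes whose arrays did not overlap, so the separation in every panel follows from the choice. Changed myeloid genes with overlap, such as Ccl9 and Il1rn, are not shown. Control mouse 2 is the control closest to the knockouts for Lilrb4a, Cd84, Ctss, Msr1, Folr2 and, by a small margin, Itgam.

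Among chemokines, Pf4, a product of platelets and of macrophages, had log2 signals of 11.17, 10.06 and 10.32 in MCK-MRcko/mdx and 8.53, 8.59 and 8.79 in Cre-/mdx. It rose by 1.88 (3.68-fold, SE 0.31), and the lowest knockout array was above all controls. Ccl9, a ligand of CCR1, rose by 1.78 (SE 0.59) with overlapping arrays, since knockout mouse 3 was at 11.48 and control mouse 2 at 11.55. Its call was lost without control mouse 1 (1.70), control mouse 3 (1.38) or knockout mouse 1 (1.24). Of 24 genes for monocyte chemokines and their receptors, 3 rose and 0 fell, with a median of 0.52. The monocyte attractants Ccl2 (0.95), Ccl7 (1.52) and Ccl8 (1.32) did not pass the test. Cxcl12, a chemokine of stromal cells, had a difference of -0.35 (SE 0.13) with no overlap between the groups.

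Receptors for microbial products and immune complexes had few changed members. Of 19 Toll-like receptor genes and adaptors 3 rose and 0 fell, with a median of 0.17. Tlr13, the endosomal sensor of bacterial ribosomal RNA, had signals of 8.96, 8.79 and 8.75 in MCK-MRcko/mdx and 7.41, 7.96 and 7.30 in Cre-/mdx. It rose by 1.28 (SE 0.30) without overlap and kept its call without any single array. Tlr1, a partner of TLR2 in sensing lipopeptides, rose by 1.13 and was not called without knockout mouse 2 (1.00). All 17 genes of Fc receptors and immunoreceptor signaling were positive, with a median of 0.46, but Tyrobp alone passed the test. Phagocyte oxidase, the enzyme that makes superoxide, had a median of 0.54 over 6 genes, and its organizer subunit Ncf1 rose by 1.01, with values of 0.83 to 1.00 and no call without control mouse 1 or 3 or knockout mouse 1 or 2. C3ar1, the receptor for complement fragment C3a, rose by 1.29, or 0.96 and not called without control mouse 1, and was the only changed gene of 15 in the complement list.

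Some lysosomal enzymes rose. Ctss, the protease cathepsin S, had log2 signals of 16.91, 16.84 and 17.10 in MCK-MRcko/mdx and 15.20, 16.09 and 15.61 in Cre-/mdx, which did not overlap. The difference was 1.32 (SE 0.35), and the call held with any 1 array left out but was lost after quantile normalization. Of 18 lysosomal proteases and hydrolases 4 rose, 0 fell and 16 were positive, with a median of 0.67, or 0.42 and 1 changed gene without control mouse 1. Without that array Ctsl, cathepsin L (1.13), Lgmn, the asparagine-specific protease legumain (1.19), and Lipa, the acid lipase that frees cholesterol (1.16), had differences of 0.92, 0.99 and 0.66 and were not called. Lipa also lost its call without knockout mouse 2 (1.17) or replicate 3 (1.05). Both Lipa and Ctsl were also not called after quantile normalization. Atp6v0d2, a proton pump subunit of macrophages and osteoclasts, was 12.25, 12.66 and 12.21 in MCK-MRcko/mdx and 9.51, 12.12 and 10.01 in Cre-/mdx. It rose by 1.83 (SE 0.62), by 0.11 within females and 2.90 within males, and was not called without control mouse 1 (1.31), control mouse 3 (1.56) or knockout mouse 2 (1.68). The part of the macrophage marker level in these lysosomal and receptor results was not tested.

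Antigen presentation genes had medians at or near 0, and that of the interferon-stimulated genes was slightly below it. Of 12 genes for MHC class II presentation, 0 changed, with a median of 0.07, and the median of 13 class I genes was 0.00. The 2 changed members of the class I list were the endoplasmic reticulum chaperones Calr, calreticulin, and Pdia3, which also serve protein folding in all cells. Calr had signals of 12.81, 12.98 and 13.33 in MCK-MRcko/mdx and 11.91, 11.88 and 12.07 in Cre-/mdx, a difference of 1.09 (SE 0.17), or 0.94 and not called without knockout mouse 3. Pdia3 rose by 1.08, and was not called without control mouse 2 (0.98) or knockout mouse 3 (0.85). Of 24 interferon-stimulated genes 0 rose, 1 fell and 19 were negative, with a median of -0.15. It was -0.36 within females and -0.16 within males, and -0.26 to 0.00 with 1 array left out. Bst2, the virus-tethering protein tetherin, was 10.99, 7.57 and 9.23 in MCK-MRcko/mdx and 10.68, 11.41 and 13.02 in Cre-/mdx. It fell by 2.44 (SE 0.97) with wide and overlapping groups, and without control mouse 2 or 3 or knockout mouse 2 or 3 the difference was between -1.59 and -2.59 and was not called. It was also lower than in LysM-MRcko/mdx, by -3.59 (SE 0.97).

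Some genes outside the lists were among the stable calls. Alox5ap, the protein that presents arachidonic acid to 5-lipoxygenase for leukotriene synthesis, was 13.17, 12.75 and 12.88 in MCK-MRcko/mdx and 10.88, 11.50 and 11.62 in Cre-/mdx. Without overlap it rose by 1.60 (SE 0.30), by 1.53 within females and 1.50 within males. Cd53, a tetraspanin of leukocytes, rose by 1.54 (SE 0.42). F7, which encodes coagulation factor VII, had signals of 7.68, 7.61 and 7.42 in MCK-MRcko/mdx and 6.21, 6.51 and 6.30 in Cre-/mdx. The spread within each group was small, and the difference of 1.23 (SE 0.14) had an adjusted p of 0.52 in limma. B4galt6, a galactosyltransferase that makes lactosylceramide, rose by 1.36 (SE 0.23). These 4 genes kept their calls without any single array, as did Il7r, the interleukin-7 receptor chain (1.38), and Anxa1, the inflammation-resolving annexin A1 (1.30), which were picked after their values were seen.

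Promoter letters are shown for the higher genes because many of them are myeloid and moved together. RefSeq promoter windows (GRCm38.p6, 250 bases before to 50 after a start) were at hand for 47 of the 105 higher and 26 of the 32 lower genes, and for 27025 genes in all, and 17 motifs were searched on both strands. The letters GAGGAAGT, a form of the site bound by the myeloid ETS factor PU.1, were in windows of 8 of the 47 higher genes (17%), 0 of the 26 lower genes and 3.69% of all genes. In 5 of the 8 they lay wholly before the start, and these stretches are printed in the direction of the gene, with the motif or its reverse complement in capitals:
Pf4: tgtcattgcttctgcagagcACTTCCTCat
Havcr2: gattctggggactcaggagttaGAGGAAGT
Tlr1: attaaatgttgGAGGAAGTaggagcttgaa
Mmp12: ccacttcacccACTTCCTCttccaagactc
Atp8b4: agtggcttgtgGAGGAAGTgccatatgagt
They lie at chr5:90772405-90772434 (plus strand), chr11:46454901-46454930 (plus), chr5:64933563-64933592 (minus), chr9:7344298-7344327 (plus) and chr2:126491650-126491679 (minus). Related letters that overlap it were a form with 1 more base, A before and G after it (1 of 47 higher genes, 0.507% of all), CACTTCCT (7, 4.68%) and the short core TTCCTC (21, 31.3%). The AP-1 letters TGACTCA were in 9 of 47 higher genes and in 5.95% of all. The corticosteroid palindrome, AGAACA and TGTTCT with 3 bases between, which MR and the glucocorticoid receptor can bind, was in 0 higher, 0 lower and 0.0111% of all genes, and its half-site TGTTCT was in 9 of 47 higher, 3 of 26 lower and 21.3% of all. Also searched were TGTTCC (16 higher, 3 lower, 17.9% of all), AGGTCA (9, 6, 18.1%), TCAAGGTCA (1, 0, 0.466%), TAGGTCA (0, 1, 2.97%), the E-box CACGTG (5, 2, 8.09%), TGACGTCA (1, 0, 2.03%), TTTGAA (14, 3, 20.2%), TTCGAA (1, 0, 1.8%), CCAAT (21, 12, 41.1%) and TATAAA (13, 2, 15.7%). The motifs were chosen with the changed genes known, and a match describes letters only.

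Some proliferation genes rose. Of 38 cell cycle and mitosis genes 6 rose, 1 fell and 37 were positive, with a median of 0.65. In 31 of the 38 the knockout arrays all lay above the controls, as they did in 4.34% of all genes. The list median was 0.99 within females and 0.44 within males. The list median on single arrays was 0.37, 0.54 and 0.88 in MCK-MRcko/mdx and 0.15, -0.28 and 0.18 in Cre-/mdx. Knockout mouse 3 was the highest, and without it 1 gene of the list changed and the median was 0.50. Without control mouse 2, the lowest control, 3 changed, and without knockout mouse 1, 10 changed. Kif11, the spindle motor Eg5, had signals of 8.69, 8.92 and 9.47 in MCK-MRcko/mdx and 7.87, 6.91 and 7.65 in Cre-/mdx. It rose by 1.55 (2.93-fold, SE 0.41) without overlap and kept its call without any single array. Mki67, the proliferation antigen Ki-67, was 11.16, 11.67 and 11.89 in MCK-MRcko/mdx and 10.58, 8.54 and 10.21 in Cre-/mdx. It rose by 1.80 (SE 0.66), and the call was lost without control mouse 2 (1.18), knockout mouse 2 (1.75) or knockout mouse 3 (1.64). Top2a, which untangles replicated DNA, rose by 1.16 but lost its call without control mouse 2 (0.81), control mouse 3 (1.27), knockout mouse 2 (1.14) or knockout mouse 3 (0.98). Pttg1, securin, which holds sister chromatids together until anaphase, was the 1 member that fell, by 1.05, and was not called without knockout mouse 1 (-0.97) or replicate 3 (-0.87).

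Of the replication-dependent histone genes, which are transcribed in S phase, 2 passed the rule, and 1 of them, H2ac14, is annotated as a pseudogene in RefSeq. H2ac14 had log2 signals of 15.87, 16.05 and 16.34 in MCK-MRcko/mdx and 13.68, 13.68 and 14.69 in Cre-/mdx, and H2ac10 had 14.55, 14.90 and 15.03 in MCK-MRcko/mdx and 12.60, 12.61 and 13.65 in Cre-/mdx. Both were higher in all knockout mice, by 2.07 (4.2-fold, SE 0.60) and 1.87 (3.66-fold, SE 0.54), and control mouse 3 was the highest control for both. They kept their calls without any single array. Of 23 histone genes with a cluster of their own, out of 61 listed, 2 rose, 0 fell and 22 were positive, with a median of 0.47. Near-identical histone genes share probes, and of 37 clusters that name several histone genes 5 rose and 0 fell, with a median of 0.57.

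Ribosomal protein genes shifted together by less than the limit. All 33 measured of 77 had a positive difference, with a median of 0.34, and 0 changed. Their median was 0.11 without control mouse 1, whose list median of -0.43 was the lowest of all arrays. The pseudogenes of Rps12 passed the limit in 14 of 16 cases, at 1.01 to 1.33, but all 14 lost their calls without control mouse 1. These copies are near-identical to each other and to the parent gene, so their clusters cannot be read as separate genes. No lncRNA (0 of 3341), miRNA (0 of 921) or snoRNA (0 of 953) gene changed by this rule, against 0.446% of all genes. Of 915 snRNA genes 5 rose (0.546%), near the 0.342% of all genes that rose, and nothing is read from these counts.

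**Figure D2:**
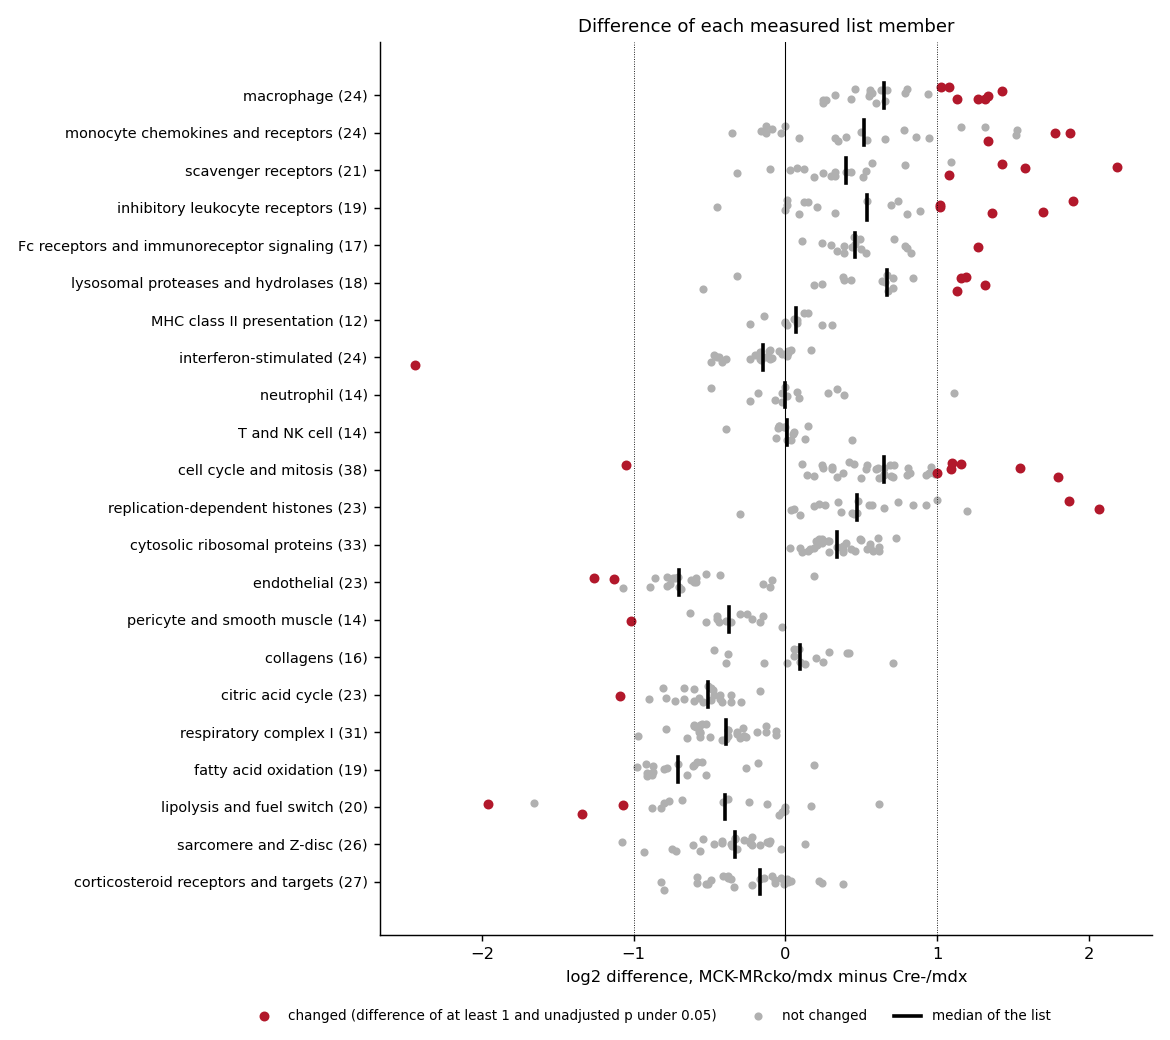
Difference in log2 signal, MCK-MRcko/mdx minus Cre-/mdx (x axis), of every measured member of 22 gene lists (rows, with the number measured); red points passed the rule for a change, grey points did not, black bars are list medians and dotted lines mark 2-fold. Macrophage, lysosomal, cell cycle and histone members lie mostly right of 0, all citric acid cycle and all but 1 of the endothelial members lie left of it, and collagens and neutrophil markers straddle it.

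Genes of fat and mitochondrial metabolism were among the lower genes, with the largest fall of these lists in Pnpla2, adipose triglyceride lipase, which takes the first fatty acid off stored triglyceride. Its log2 signals were 10.91, 12.28 and 10.41 in MCK-MRcko/mdx and 13.09, 13.56 and 12.82 in Cre-/mdx. The groups did not overlap, and the male knockout, replicate 2, was nearest to the controls. The difference was -1.96 (3.88-fold lower, SE 0.48), with -2.90 within females and -0.68 within males. Pdk2, the kinase that switches off pyruvate dehydrogenase, was 12.42, 13.63 and 12.02 in MCK-MRcko/mdx and 13.68, 14.40 and 14.01 in Cre-/mdx. It fell by 1.34 (SE 0.40) without overlap, with -2.18 within females and -0.21 within males. Both genes kept their calls without any single array, and both were lower than in LysM-MRcko/mdx, by -2.83 (SE 0.48) for Pnpla2 and -1.11 (SE 0.40) for Pdk2. Acacb, the mitochondrial acetyl-CoA carboxylase whose product restrains fatty acid entry, was 8.78, 8.77 and 8.42 in MCK-MRcko/mdx and 10.06, 10.11 and 9.02 in Cre-/mdx. It fell by 1.07 (SE 0.30) without overlap, and the call was lost without control mouse 1 (-0.91), control mouse 2 (-0.88) or knockout mouse 3 (-0.95). These were the 3 lower genes among 20 of lipolysis and fuel switching, of which 0 rose, with a median of -0.40. The pyruvate dehydrogenase kinase Pdk4 and the uncoupling protein Ucp3 spread widely within the knockout group, at 17.54, 14.64 and 13.96 and at 11.67, 9.30 and 8.73, and did not pass the test.

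Mitochondrial enzymes were lower by small amounts across whole lists. All 23 citric acid cycle genes had a negative difference, with a median of -0.51, as did all 31 genes of respiratory complex I (-0.39), all 22 of complexes III and IV (-0.43) and all 15 of ATP synthase (-0.29). Fatty acid oxidation had the lowest median of these lists, -0.71, with 18 of 19 genes negative. Few members passed the test, 1 in the citric acid cycle, 1 in complexes III and IV and 0 in the others. Uqcrc1, a core subunit of complex III, had signals of 12.90, 14.08 and 12.89 in MCK-MRcko/mdx and 14.37, 15.16 and 14.64 in Cre-/mdx. It fell by 1.43 (2.7-fold, SE 0.36) without overlap, with -2.27 within females and -0.42 within males, kept its call without any single array, and was lower than in LysM-MRcko/mdx by -1.41 (SE 0.36). Cs, citrate synthase, averaged 15.37 ± 0.49 in MCK-MRcko/mdx and 16.46 ± 0.59 in Cre-/mdx (SD, n = 3 each), with the value 15.93 found once in each group. It fell by 1.09 (SE 0.35), or by 0.77, 0.90 and 1.00 without control mouse 2, knockout mouse 1 or replicate 3, and was not called in these cases. Ppargc1a, the coactivator PGC-1alpha that drives mitochondrial genes, was 10.10, 10.13 and 9.61 in MCK-MRcko/mdx and 12.01, 11.12 and 10.13 in Cre-/mdx. It fell by 1.14 (SE 0.46) with overlap, and its call was lost at -0.68 to -1.23 with any array except control mouse 3 left out. Carnitine palmitoyltransferase Cpt1b, which admits fatty acids to mitochondria, had a difference of -0.91 (SE 0.25) without overlap and did not pass the limit.

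The size of the metabolic differences depended on 1 control, control mouse 2, the only female control. The citric acid cycle list had array medians of -0.76, -0.53 and -0.31 in MCK-MRcko/mdx and -0.25, 0.64 and -0.34 in Cre-/mdx. Without that control the list medians were -0.21 for the citric acid cycle, -0.17 for complex I, -0.08 for complexes III and IV, -0.11 for ATP synthase, -0.28 for fatty acid oxidation and -0.18 for lipolysis and fuel switching. Within males they were -0.27, -0.24, -0.18, -0.04, -0.24 and -0.18. Among the MCK-MRcko/mdx and Cre-/mdx arrays, the same control had the highest adipocyte markers. Their array medians were -0.87, -0.42 and -0.35 in MCK-MRcko/mdx and -0.10, 1.03 and -0.90 in Cre-/mdx. Of these 12 markers 0 changed, with a median of -0.59, or 0.09 without control mouse 2, and their part in the metabolic differences was not tested. In MCK-MRcko/mdx minus LysM-MRcko/mdx, a contrast without the control arrays, the medians of these 6 metabolic lists lay between -0.21 and 0.02. That of the adipocyte markers was -1.17, but their LysM-MRcko/mdx array medians were 0.04, -0.21 and 1.15. Replicate 3 of that group was thus above control mouse 2, so this contrast also held an array with high adipocyte markers.

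**Figure D3:**
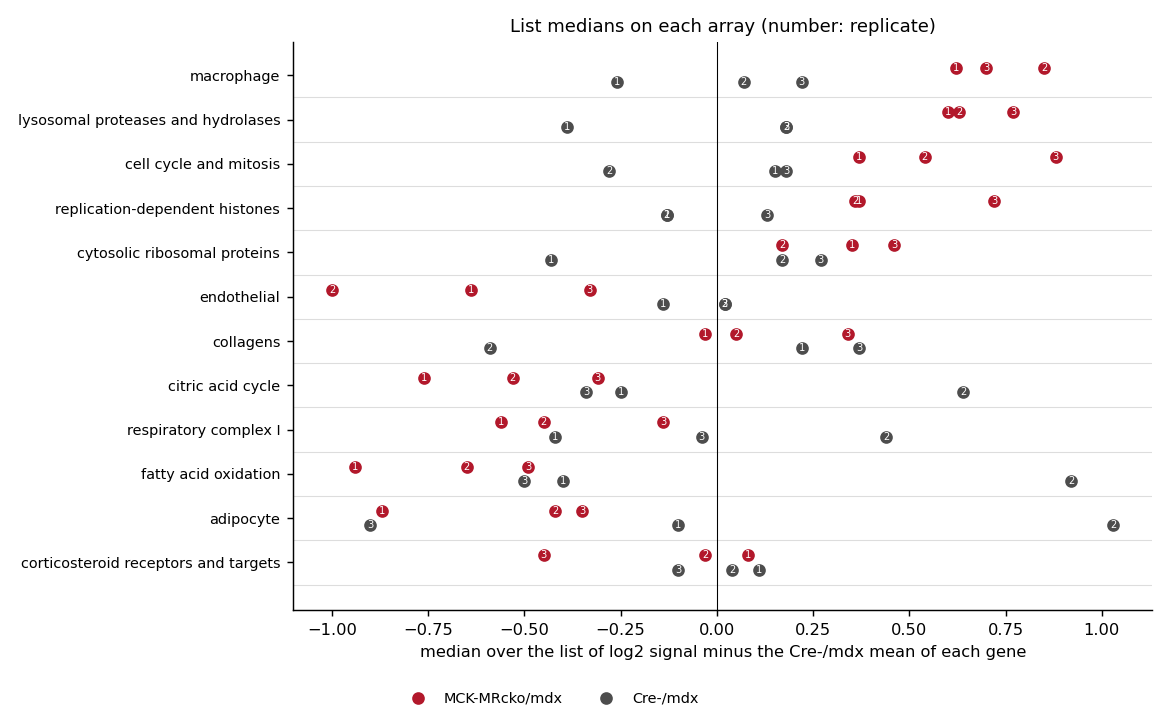
Median over each list of the log2 signal minus the Cre-/mdx mean of each gene (x axis), for each array, numbered by replicate, with MCK-MRcko/mdx above Cre-/mdx in every row. For macrophage, lysosomal, cell cycle, histone and endothelial genes the 3 knockout arrays lie on one side of the controls. For fatty acid oxidation and adipocyte genes control mouse 2, at 0.92 and 1.03, stands apart from all other arrays shown.

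Genes of muscle structure and turnover were lower in part. Asb15, a substrate receptor of muscle ubiquitin ligases, had log2 signals of 10.32, 11.45 and 10.25 in MCK-MRcko/mdx and 13.09, 12.47 and 11.74 in Cre-/mdx. It fell by 1.76 (3.39-fold, SE 0.50) without overlap, with -2.19 within females and -0.96 within males, and kept its call without any single array. Ky, a protease-like protein of the Z-disc needed for muscle growth, and Klhl33, a Kelch protein, fell by 1.21 and 1.00 and were the other changed members of 28 genes of ubiquitin ligases and growth, of which 0 rose, with a median of -0.16. Klhl33 was at the limit and lost its call without any of the 6 arrays, at -0.89 to -1.14, and Ky without control mouse 1 or 3 or knockout mouse 1 or 3, at -0.83 to -1.21. The atrophy ligases Trim63 and Fbxo32 had differences of 0.22 (SE 0.56) and -0.38 (SE 0.50). Sgca, alpha-sarcoglycan of the dystrophin complex, was 10.20, 11.04 and 10.61 in MCK-MRcko/mdx and 11.79, 11.28 and 11.98 in Cre-/mdx. It fell by 1.07 (SE 0.26) without overlap, and was not called without control mouse 3 (-0.92) or knockout mouse 1 (-0.86). Of 14 genes of that complex it alone changed, with a median of -0.04. The 26 sarcomere and Z-disc genes had a median of -0.33, with 0 changed and 25 negative, and 17 glycolysis genes a median of -0.24 with 0 changed. Tuba4a, an alpha-tubulin, was 14.80, 15.46 and 14.42 in MCK-MRcko/mdx and 16.01, 16.01 and 16.11 in Cre-/mdx, with nearly equal controls. It fell by 1.15 (SE 0.24), or by 0.91 and not called without knockout mouse 3, and was lower than in LysM-MRcko/mdx by -1.39 (SE 0.24).

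Of the 32 lower genes, 11 were also lower than in LysM-MRcko/mdx by the same rule, against a background of 0.332% of all genes and 0.204% of all clusters. Besides those given above they included Babam1, a subunit of a BRCA1 complex (-2.03, SE 0.37), and Lynx1, a modulator of acetylcholine receptors (-1.19, SE 0.28). Against Cre-/mdx these fell by 1.29 (SE 0.37) and 1.22 (SE 0.28) without overlap, and their calls were lost without control mouse 3 (-0.86) for Babam1 and without knockout mouse 1 (-0.94) for Lynx1. Both contrasts use the same knockout arrays, on which the 32 genes were chosen, so the share over all genes is not what no change would give, and nothing is read from the count of 11.

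**Figure D4:**
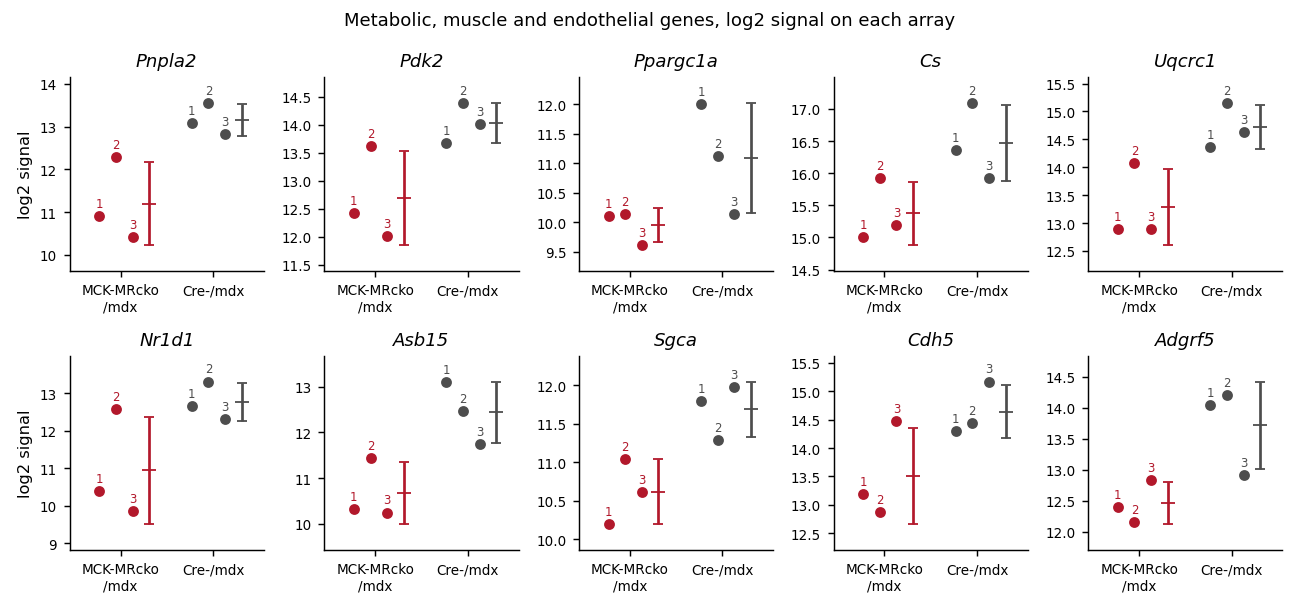
Log2 signal (y axis, own range per panel) of 10 metabolic, muscle and endothelial genes on each array, with MCK-MRcko/mdx left and Cre-/mdx right; points are arrays numbered by replicate, and bars show mean and SD (n = 3 each). Knockout mouse 2, the male knockout, is the highest knockout array in all panels except Cdh5 and Adgrf5, where it is the lowest. The groups overlap for Nr1d1, Cs, Ppargc1a and Cdh5.

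Endothelial genes were lower as a list. Of 23 markers 0 rose, 2 fell and 22 had a negative difference, with a median of -0.70. In 13 the knockout arrays all lay below the controls, as they did in 2.6% of all genes. The list median was -0.64, -1.0 and -0.33 in MCK-MRcko/mdx and -0.14, 0.02 and 0.02 in Cre-/mdx, and it stayed between -0.54 and -0.74 with any 1 array left out. The number of changed members was 1 to 5 in these cases, with 1 without control mouse 2 or knockout mouse 2. Adgrf5, an adhesion receptor of endothelial cells, fell by 1.26 (SE 0.36) and kept its call without any single array, with -1.58 within females and -1.32 within males. Cdh5, VE-cadherin of endothelial junctions, was 13.19, 12.87 and 14.47 in MCK-MRcko/mdx and 14.30, 14.44 and 15.17 in Cre-/mdx. It fell by 1.13 (SE 0.42) with 1 knockout array at the level of the controls, and at -0.81 to -1.23 it was not called without control mouse 2 or 3 or knockout mouse 1 or 2. Pecam1 (-0.73), the angiopoietin receptor Tek (-0.60) and Tie1 (-0.59) did not overlap between the groups but did not pass the limit. Pericyte and smooth muscle markers, 14 of 14 negative, had a median of -0.37, or -0.24 without knockout mouse 2, and Rgs5, a pericyte regulator of G protein signaling, fell by 1.02, with overlap. Its call was lost at -0.62 to -1.11 without any control array or knockout mouse 1 or 2. Against LysM-MRcko/mdx the endothelial median was -0.35, with 0 members changed in limma.

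Matrix lists differed in direction. Of 15 basement membrane genes 0 rose, 1 fell and 13 were negative, with a median of -0.28, or -0.13 to -0.50 with 1 array left out. Of 16 collagen genes 0 changed, with a median of 0.10, or -0.22 without control mouse 2, and within-sex medians were 0.77 in females and -0.18 in males. Tgfbi, a matrix protein induced by TGF-beta, was 13.71, 13.23 and 13.22 in MCK-MRcko/mdx and 12.39, 12.37 and 12.34 in Cre-/mdx. It rose by 1.02 (SE 0.23) without overlap, or by 0.86 and not called without knockout mouse 1, and was the 1 changed gene of 18 of activated fibroblasts, with a list median of 0.26. Against LysM-MRcko/mdx this list was lower, with a median of -0.94, 0 members higher and 7 lower, among them Tnc (-2.84, SE 0.53) and Fn1 (-1.48, SE 0.52). Lox, the collagen cross-linking enzyme lysyl oxidase, averaged 12.10 ± 0.23 in MCK-MRcko/mdx and 11.17 ± 0.44 in Cre-/mdx (SD, n = 3 each). Its arrays did not overlap, and the difference of 0.92 (SE 0.23) did not reach the limit. Tnc and Fn1, the matrix proteins tenascin C and fibronectin, had differences of 0.31 and 0.13. Hspg2, the basement membrane proteoglycan perlecan and the changed gene of that list, fell by 1.12 with overlap, and was called only with control mouse 2 left out or with all arrays, at -0.85 to -1.21 in the other cases. The macrophage elastase Mmp12 was 9.62, 10.52 and 9.84 in MCK-MRcko/mdx and 6.98, 9.61 and 8.31 in Cre-/mdx. It rose by 1.69 (SE 0.63), by 0.12 within females and 2.87 within males, and lost its call at 1.03 to 1.77 without control mouse 1 or 3 or knockout mouse 2 or 3.

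Corticosteroid signaling was described by a chosen list, which does not hold every gene these hormones control. Of 27 receptors, steroid enzymes and target genes of MR and the glucocorticoid receptor, 0 passed the test in limma, with 21 negative and a median of -0.17, which was 0.00 without knockout mouse 3 and -0.38 without control mouse 3 or knockout mouse 1. The kinase Sgk1, a target of both receptors, had signals of 11.06, 10.80 and 9.69 in MCK-MRcko/mdx and 11.41, 10.47 and 10.81 in Cre-/mdx, a difference of -0.38 (SE 0.45). The low array was knockout mouse 3, which was also lowest for Per1 (5.90), Fkbp5 (5.92), Zbtb16 (7.12) and Tsc22d3 (7.93), targets of the glucocorticoid receptor. Hsd11b1, the enzyme that regenerates active glucocorticoid, was 5.98, 5.87 and 5.98 in MCK-MRcko/mdx and 6.39, 6.26 and 6.26 in Cre-/mdx, a difference of -0.36 (SE 0.07) without overlap and under the limit. The glucocorticoid receptor Nr3c1 had a difference of 0.24 (SE 0.24).

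The 18 clock genes had a median of -0.38, with 14 negative, or -0.53 to -0.16 with 1 array left out. Their array medians were -0.23, -0.05 and -0.66 in MCK-MRcko/mdx and 0.02, 0.00 and -0.09 in Cre-/mdx, lowest in knockout mouse 3. Nr1d1, the heme-binding repressor Rev-Erb-alpha, was the 1 clock gene that changed. Its signals were 10.40, 12.57 and 9.87 in MCK-MRcko/mdx and 12.67, 13.31 and 12.32 in Cre-/mdx. It fell by 1.82 (SE 0.67) with overlap, with -3.18 within females and 0.07 within males, and lost its call at -1.28 to -1.87 without control mouse 1 or 2 or knockout mouse 1 or 3. Immediate early genes, which respond within minutes to stimulation, had 0 changed of 21 and were set by knockout mouse 1, with an array median of 1.01 against -0.12 and -0.18 in the other knockout mice. The transcription factor Fos was 10.64, 6.74 and 6.12 in MCK-MRcko/mdx and 6.38, 8.19 and 6.31 in Cre-/mdx. Regenerating fibers, marked by embryonic sarcomere genes, had 0 changed of 15 genes and a median of -0.11, and satellite cells and myoblasts 0 of 17 and -0.01. The myogenic factor Myog was 9.64, 12.45 and 10.66 in MCK-MRcko/mdx and 10.50, 9.80 and 10.85 in Cre-/mdx, with overlap.

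Of the 211 changed clusters, 57 had no symbol and 16 named several genes. The largest rise of all was in TC0500001025.mm.1, for which no gene is named. It had log2 signals of 15.59, 14.67 and 15.58 in MCK-MRcko/mdx and 11.33, 12.85 and 12.36 in Cre-/mdx, which did not overlap. The difference was 3.10 (8.57-fold, SE 0.58), within females 2.74 and within males 2.83, and the call held without any single array. This cluster was also higher in LysM-MRcko/mdx than in Cre-/mdx, by 2.13. Its difference of 0.97 (SE 0.58) in MCK-MRcko/mdx minus LysM-MRcko/mdx did not pass the rule. Of 30 clusters whose identifiers place them on the mitochondrial chromosome 7 fell and 0 rose, all 7 among the 19 without a symbol. Of all clusters 0.0944% fell. The lowest, TC0M00000024.mm.1, was 12.64, 11.09 and 9.97 in MCK-MRcko/mdx and 17.83, 12.73 and 15.21 in Cre-/mdx, a difference of -4.02 (SE 1.64) that was not called at -2.74 to -4.05 without control mouse 1 or 3 or knockout mouse 2 or 3. TC0M00000020.mm.1 (-3.36, SE 0.97) and TC0M00000029.mm.1 (-1.80, SE 0.42) fell without overlap and kept their calls without any single array. The other changed mitochondrial clusters did not keep theirs. Both stable clusters were also lower in LysM-MRcko/mdx than in Cre-/mdx (-2.56 and -1.76), and none of the 7 was called in MCK-MRcko/mdx minus LysM-MRcko/mdx. Several of the 11 mitochondrial clusters with a symbol sat at the top of the scale. Both clusters that name Hba-a1 and Hba-a2, the alpha-globins of red blood cells, fell, by 1.45 and 1.65. Their values were lowest in knockout mouse 2, without which the differences were -1.0 and -1.17, and with each of the 6 arrays left out in turn their calls were lost in 5 and 4 cases. The 4 measured erythrocyte markers had a median of -0.18 with 0 changed.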

How the data were processed

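Gene-level log2 signals deposited by the authors were used as they are. The authors had hybridised amplified quadriceps RNA to Clariom D mouse arrays, 1 per animal, and normalized and summarised the probes with the SST-RMA algorithm in Affymetrix Expression Console, with comparisons in Transcriptome Analysis Console, versions not given in the sources used here. No further normalization or filter was applied. Symbols came from the platform's probe table, updated through RefSeq for 981 clusters: 31104 clusters had 1 symbol, 1497 several and 33071 none. All 9 arrays entered 1 linear model, with a mean for each group, in limma 3.58.1 (R 4.3.3; lmFit, contrasts.fit, eBayes), with p-values adjusted over all clusters by Benjamini and Hochberg. The number of arrays limits the precision, and 255 clusters exceeded 19 on all 6 arrays. The replicates are separate animals.

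Named genes were Nr3c2, the 15 highest and 15 lowest changed genes whose arrays did not overlap, the 10 with the largest moderated t, and up to 6 changed members of each list, or its largest difference where none changed. The 54 lists (890 of 1044 distinct genes measured) are described by counts and medians. Members, lists and tests were chosen with earlier results of these data known. Genes named outside the rule are given for their values. The code was tested on simulated data. Alternatives were quantile normalization, centring on array medians, dropping dim clusters, keeping 1 cluster per gene, eBayes with trend and robust options, weighting arrays, adding sex, blocking on replicate number, fitting the 6 arrays alone, and leaving out each array. Promoter windows came from RefSeq (GRCm38.p6).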

Additional observations from a re-analysis of the deposited data

How the results depend on the processing

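The 211 changed clusters (149 higher, 62 lower) numbered 155 to 555 with 1 array left out, 88 to 437 higher and 54 to 118 lower. Without control mouse 2 there were 355, without control mouse 3 336 and without knockout mouse 2 555, and without control mouse 1 there were 88 higher and 90 lower. With 1 cluster per gene 133 passed, 30 of them lower. Lower clusters numbered 99 after quantile normalization and 40 in the fit on 6 arrays. With the replicate number as a block 164 passed, 161 of them shared with the fit without it. Same-numbered arrays had correlations of 0.114, -0.29 and 0.16 in their deviations from the group mean, and other pairs -0.418 to 0.4. With 3 arrays per group such values cannot settle whether same-numbered animals had anything else in common. With sex as a covariate 183 passed, 138 of them among the 211. Of the 94 named genes, 14 lost their call with sex as a covariate. These were Sgca, Tgfbi, Tyrobp, Il1rn, Ncf1, Mmp12, Hspg2, Nr1d1, Ppargc1a, Ky, Cd180, Atp8b4, Osbpl8 and Gstp-ps. After quantile normalization 11 lost it: Ctss, Ctsl, Lipa, Cd68, Calr, Pdia3, Havcr2, Ncf1, Tgfbi, Atp8b4 and Osbpl8. At an adjusted p under 0.05 in limma, 0 clusters passed under every alternative with all arrays, and 0 to 1 with 1 array left out. A total of 44 clusters kept their call without any single array. Of the named genes, some with differences inside the noise changed sign: Ighm (-0.14) ranged over -0.34 to 0.23 with 1 animal left out, Myog (0.53) over -0.23 to 1.17 and Fos (0.87) over -0.53 to 1.73, and with sex as a covariate Cpa3 (0.42) and Xist (3.76) were both -0.06. Signal limits what can be seen at the bottom of the scale, since 2 changed clusters were in the dimmest and 193 in the brightest of 3 equal classes of mean signal.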
